A study of Mus musculus with 6 samples.

Results

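The genes described here encode the lysyl oxidases, Lox and Loxl1 to Loxl4, together with the secreted matrix proteins Fn1, Sparc, Ccdc80, Dcn and Fbn1. They were chosen by symbol, with earlier results of the same comparison known, so every difference between the sorted fractions below is a description and not a test of these genes. All probe sets annotated to exactly 1 of the 10 symbols were taken, which gave 17 of the 34945 single-gene probe sets of the array. These 17 cover 8 of the 10 genes. Both probe sets of Loxl2 also carry another symbol and were not used, and no probe set was named for Fbn1.

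The lysyl oxidases are secreted copper enzymes that oxidise lysines of collagen and elastin, and the resulting aldehydes form the covalent crosslinks of the fibres. Fibronectin, decorin, SPARC and fibrillin are matrix proteins to which collagen fibres or elastic fibres bind as they assemble. In the ovary such a matrix lies in the tunica albuginea and the stroma, beneath the surface epithelium.

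Expression was measured on Affymetrix Mouse Genome 430 2.0 arrays in primary cells of the ovarian surface epithelium, the thin layer on the outside of the ovary. Virgin FVB/N mice aged 8 weeks were the source, with no genetic change given in the labels, and the cells were cultured for 24 hours. Aldehyde dehydrogenase (ALDH) activity was stained with ALDEFLUOR, which becomes a retained fluorescent dye where the enzymes are active, and cells were sorted into 3 ALDH-positive and 3 ALDH-negative samples, with unstained and inhibitor-treated cells as gating controls. Each of 3 independent pools of 10 mice gave 1 sample of each fraction, so both fractions share strain, age and culture, and a sample is the mean of the sorted cells of 10 mice.

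Values are log2 signals after quantile normalization, and differences are ALDH-positive minus ALDH-negative within a pool. The number of arrays limits the precision. A probe set was tested when its mean over the 6 arrays was above 2.73, the level below which the dimmest 40% lay, and values near or under this level were taken as hardly above background. In bulk samples fewer cells of a type and less RNA per cell cannot be told apart.

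One array, that of ALDH-negative cells of pool 2, was unlike the rest. Its correlation with them across probe sets was 0.558 to 0.679, and among the other 5 it was 0.850 to 0.974. Where pool 2 turned the sign of a mean or moved it by much, the value without pool 2 or the pool values are given. No probe set passed the limma test of the fractions over the whole array after Benjamini-Hochberg adjustment, with 0 of 27022 called higher and 0 called lower. At an unadjusted limma p under 0.05 there were 661, a smaller share than the 0.05 that evenly spread p-values would give. The share called was 0% in each direction, and accordingly none of the 8 measured genes was called. With array weights, which gave the pool 3 pair most of the weight, 5.47% of probe sets were called higher and 5.46% lower. Of the 8 genes, 4 were then called higher (Lox, Loxl1, Fn1 and Ccdc80) and 0 lower, from which nothing is read because the genes were chosen with this contrast known.

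As a check of the labelled cell type, 15 markers of surface epithelium and mesothelium were read. All 15 lay above the level of 2.73 on each ALDH-positive array, while 10, 11 and 11 did so on the ALDH-negative arrays of pools 1, 2 and 3. Bnc1, a zinc finger protein of epithelia, Lrrn4, a mesothelial membrane protein, and Muc16, a surface mucin, lay under that level on all ALDH-negative arrays. Lrrn4 and Muc16 were named after their values were seen. Theca, interstitial and luteal markers summed to 11.67 to 12.24 on ALDH-positive arrays (log2), against 11.37 to 11.70 for the 15 epithelial markers. On the ALDH-negative arrays of pools 1 and 3 these sums were 12.15 to 12.79, against 8.37 to 9.18. In pool 2 they were 8.19 and 8.36. The check thus does not show that the samples held surface epithelium alone.

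Sequences were at hand for a pair of the measured genes, Sparc and Loxl4. In the values below, their brightest probe sets differed in opposite directions in pool 2, which holds the array unlike the rest. Another tested probe set of Sparc was lower in ALDH-positive cells there, as Loxl4 was. A link between sequence and signal was not tested. Shown are the 250 bases before the RefSeq gene start on GRCm38.p6, at chr11:55420081-55420330 on the minus strand for Sparc and at chr19:42612807-42613056 on the minus strand for Loxl4, each read 5′ to 3′ in the direction of the gene. Capitals mark matches on either strand to 1 of 3 motifs, and neighbouring matches can overlap. The first motif was GGGCGG, the core of what is called a GC box. The next was TATAAA, a form of the box found before many gene starts. The last was GGAGG.
Sparc: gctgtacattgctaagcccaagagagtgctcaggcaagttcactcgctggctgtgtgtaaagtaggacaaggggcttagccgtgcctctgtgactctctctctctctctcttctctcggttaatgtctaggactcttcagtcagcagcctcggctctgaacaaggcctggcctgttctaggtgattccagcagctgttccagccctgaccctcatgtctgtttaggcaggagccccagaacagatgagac
Loxl4: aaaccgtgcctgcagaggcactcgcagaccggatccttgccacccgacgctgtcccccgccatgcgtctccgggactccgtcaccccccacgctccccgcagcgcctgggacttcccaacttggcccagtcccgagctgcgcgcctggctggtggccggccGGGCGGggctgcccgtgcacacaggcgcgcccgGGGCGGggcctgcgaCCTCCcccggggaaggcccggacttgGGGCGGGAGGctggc

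The Loxl4 window held 3 matches to GGGCGG, 0 to TATAAA and 2 to GGAGG, with 1 overlap of the first and the last. The Sparc window held 0 matches to each. Among 32851 promoter windows of the same length, 32.7% held GGGCGG, 12.4% held TATAAA and 66.9% held GGAGG. The G and C content was 76.0% for Loxl4 and 54.0% for Sparc, against a median of 52.4% over all windows. These counts describe letters in the windows and not bound sites.

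Among the lysyl oxidases, Lox and Loxl1 had higher signal in the ALDH-positive array of every pool, without overlap of the fractions at their brightest probe sets. For Loxl3 and Loxl4 the fractions overlapped, although Loxl3 was, after quantile normalization, also higher in every pool, by little in pools 1 and 3. Lox, the founding enzyme of the family, read 7.12, 6.70 and 5.62 in ALDH-positive cells of pools 1 to 3, against 4.75, 3.77 and 4.61 in ALDH-negative cells, at its brightest probe set (1448228_at). The lowest ALDH-positive value was thus above the highest ALDH-negative one. The mean difference was 2.10 ± 0.98 (SD, n = 3 pools; SE of the limma fit 0.70), a 4.30-fold difference, and 1.69 without pool 2.

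A second probe set of Lox (1416121_at) gave 6.91, 6.61 and 6.50 in ALDH-positive cells and 4.75, 3.23 and 4.12 in ALDH-negative cells. Its mean difference was 2.64 ± 0.65 (SD, n = 3 pools), so both probe sets separated the fractions in the same direction. The smallest difference was in pool 3 at the first, with 1.01, and in pool 1 at the second, with 2.16. The third probe set (1437903_at) read 0.80 or less on every array and was too dim to be tested.

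Loxl1 acts mainly on elastin and is needed for elastic fibre renewal in mice. The SD of its pool differences, 0.41, was close to the 0.45 of Loxl3 and smaller than those of Lox and Loxl4. Loxl1 read 6.17, 6.33 and 5.96 in ALDH-positive cells of pools 1 to 3, against 2.67, 3.09 and 3.26 in ALDH-negative cells (1451978_at). The mean difference was 3.14 ± 0.41 (SD, n = 3 pools; limma SE 0.64), or 8.84-fold, and without pool 2 it was 3.10. Of the 3 ALDH-negative values 1 lay under the level of 2.73 and the others just above it, so that this fold is against a signal near background.

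The other probe set of Loxl1 (1436063_at) was too dim to be tested, with a mean over the arrays under that level. It read 4.26, 3.13 and 1.83 in ALDH-positive cells and 1.65, 3.98 and 1.11 in ALDH-negative cells, with differences of 2.61, -0.86 and 0.72. The fractions overlapped there through the ALDH-negative array of pool 2, which gave that fraction's highest value.

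Loxl3, a family member with scavenger receptor domains that also crosslinks collagen, read 5.09, 4.89 and 5.93 in ALDH-positive cells and 5.01, 4.07 and 5.92 in ALDH-negative cells. The differences in pools 1 and 3 were 0.08 and 0.01, and the mean of 0.30 ± 0.45 (SD, n = 3 pools) was within the spread between pools. Without pool 2 it was 0.04, and leaving out the ALDH-negative array of pool 2 alone, in a fit without pools, turned it to -0.16. With the values as deposited, the pool 1 difference was -0.18, so its sign there depended on the normalization.

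Loxl4, of the same scavenger receptor domain branch, read 4.64, 3.93 and 5.02 in ALDH-positive cells, against 3.91, 7.61 and 4.71 in ALDH-negative cells (1421153_at). Its differences were 0.73, -3.68 and 0.31. The value of 7.61 came from the array that was unlike the rest, and the mean of -0.88 ± 2.44 (SD, n = 3 pools) became 0.52 without pool 2. The second probe set (1450134_at) was too dim to be tested and differed by -0.09, -0.54 and 1.02.

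**Figure D1:**
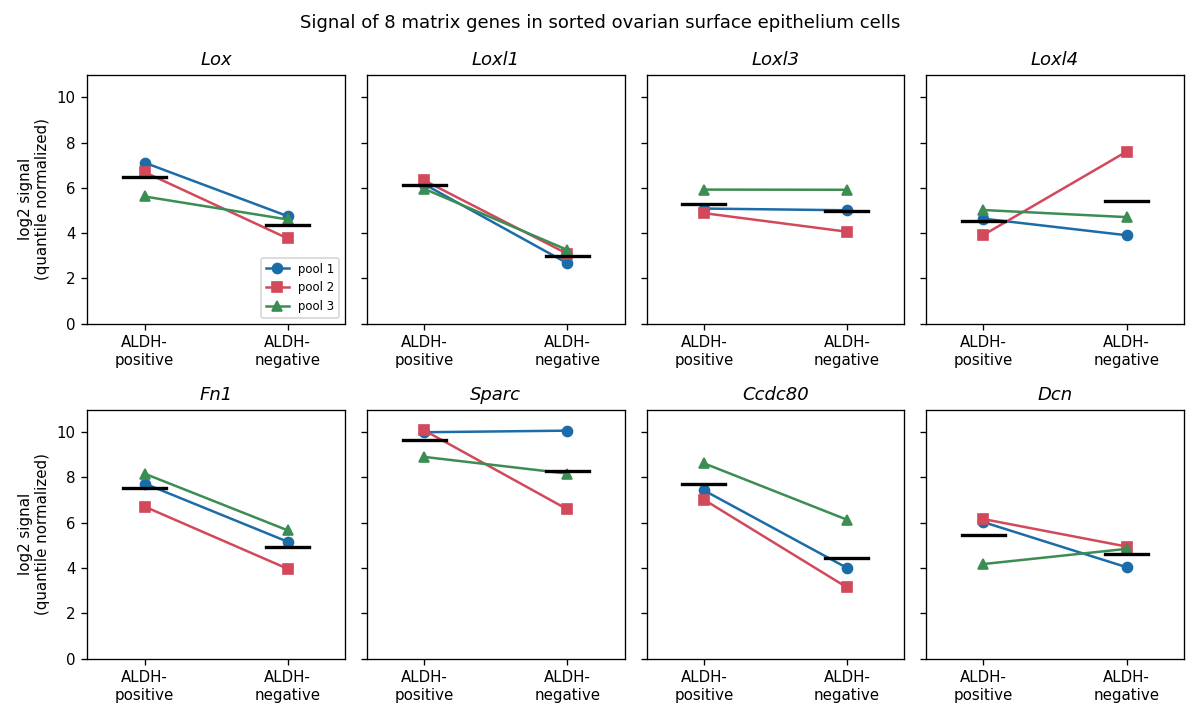
Log2 signal (quantile normalized) of the brightest probe set of each of 8 genes, with ALDH-positive samples left and ALDH-negative samples right in each panel; points are arrays, lines join the arrays of a pool and black bars are means of 3 arrays. The fractions do not overlap for Lox, Loxl1, Fn1 and Ccdc80, while for Loxl4 and Sparc the pool 2 line (red squares) runs apart from the lines of pools 1 and 3.

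Of the secreted matrix proteins, Fn1 and Ccdc80 were higher in ALDH-positive cells of each pool, while Sparc and Dcn overlapped. Fn1 encodes fibronectin, an adhesive glycoprotein that cells assemble into fibrils through integrins. It read 7.73, 6.72 and 8.17 in ALDH-positive cells of pools 1 to 3, against 5.16, 3.97 and 5.67 in ALDH-negative cells (1426642_at). Pool 3 was highest and pool 2 lowest in both fractions, and the differences of 2.57, 2.75 and 2.50 were therefore closer to each other than the levels were.

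The mean difference of Fn1 was 2.61 ± 0.13 (SD, n = 3 pools; limma SE 0.63), or 6.10-fold. The limma SE exceeds the spread of these 3 pools because the fit draws each variance towards that of all probe sets. A dimmer probe set of Fn1 (1437218_at), left out of the test, gave 2.95, 2.76 and 3.56 in ALDH-positive cells and 1.12, 1.35 and 1.91 in ALDH-negative cells. It ordered the fractions the same way, by 1.63 ± 0.21 (SD, n = 3 pools), with all ALDH-negative values under 2.73.

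Ccdc80 encodes a secreted protein that binds matrix and is abundant in adipose and mesenchymal cells. It read 7.43, 7.02 and 8.63 in ALDH-positive cells, against 4.01, 3.14 and 6.13 in ALDH-negative cells (1424186_at). The difference of 3.27 ± 0.71 (SD, n = 3 pools; limma SE 0.67) was 9.63-fold, and 2.96 without pool 2. Its second probe set (1424187_at) read 6.84, 6.98 and 5.56 in ALDH-positive cells and 3.74, 5.36 and 4.21 in ALDH-negative cells. The groups were apart by only 0.21 there, and the mean difference was 2.03 ± 0.94 (SD, n = 3 pools).

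The probe sets of Ccdc80 did not order the pools alike. Among ALDH-positive arrays pool 3 was the highest at the first probe set, with 8.63, and the lowest at the second, with 5.56. Both kept the ALDH-positive values above the ALDH-negative ones.

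Sparc, a collagen-binding matricellular glycoprotein, was bright in both fractions of pool 1. At its brightest probe set (1448392_at) it read 10.00, 10.08 and 8.91 in ALDH-positive cells, against 10.07, 6.60 and 8.17 in ALDH-negative cells. The differences of -0.07, 3.49 and 0.74 gave a mean of 1.39 ± 1.87 (SD, n = 3 pools), smaller than the spread between pools, and 0.33 without pool 2.

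The probe set 1416589_at of Sparc had the same pattern, with 10.28, 10.31 and 7.52 in ALDH-positive cells and 10.49, 3.36 and 6.91 in ALDH-negative cells. Its difference of 6.95 in pool 2 stood against -0.21 and 0.62 in pools 1 and 3. On that ALDH-negative array the 3' control probe set of Actb, beta-actin, also read low as deposited, at 5.03 against 9.56 and 10.81 on the other ALDH-negative arrays. The 3' control probe set of Gapdh read 10.07 there, against 11.20 and 10.22 on the ALDH-negative arrays of pools 1 and 3. The part of the low Actb signal in the result was not tested. The remaining probe set of Sparc (1458204_at) was lower in ALDH-positive cells of each pool, by -0.12, -0.95 and -0.23, so the probe sets of Sparc disagreed in sign.

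Dcn encodes decorin, a small leucine-rich proteoglycan that binds collagen fibrils and TGF-beta. It read 6.03, 6.16 and 4.18 in ALDH-positive cells, against 4.04, 4.95 and 4.85 in ALDH-negative cells (1449368_at). Pools 1 and 2 gave differences of 1.99 and 1.21 and pool 3 gave -0.67, so that the mean of 0.85 ± 1.37 (SD, n = 3 pools) was within the spread. It was 0.27 without pool 1, 0.66 without pool 2 and 1.60 without pool 3. The second probe set (1441506_at) read at most 2.25 on any array.

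**Figure D2:**
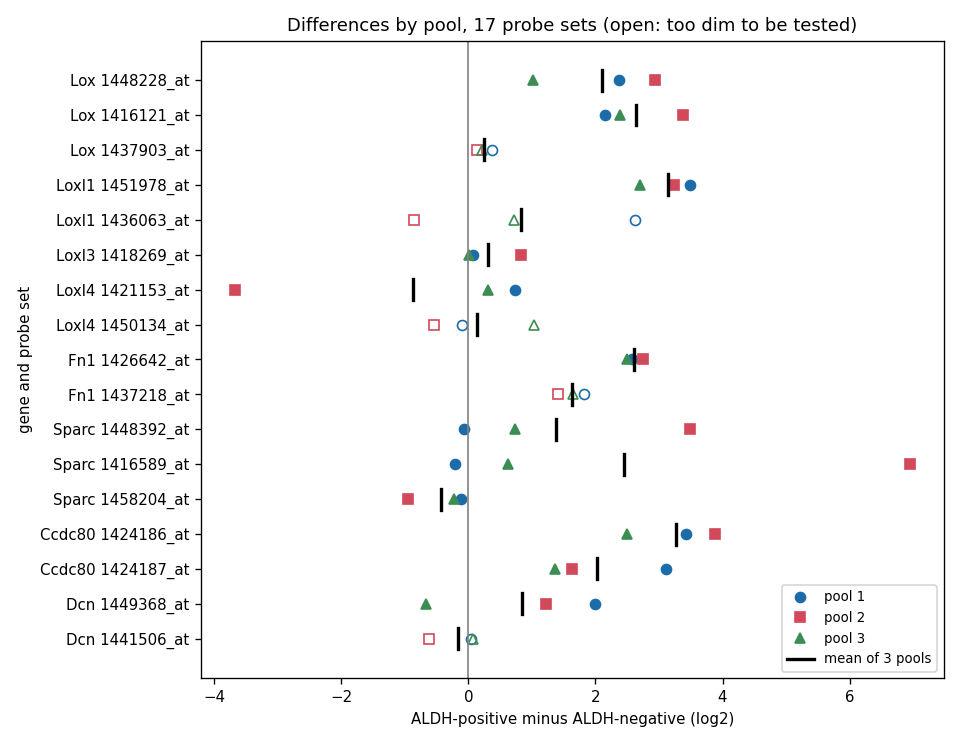
Difference of ALDH-positive minus ALDH-negative signal (log2, horizontal axis) for each of the 17 probe sets (vertical axis), with 1 point for each pool, a black bar for the mean of 3 pools and open points for the 5 probe sets too dim to be tested. Both bright probe sets of Lox and both of Ccdc80 lie right of 0 in all pools, and the pool 2 points of Sparc reach 6.95 while its remaining probe set lies left of 0.

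Of the 17 probe sets, 12 were bright enough to be tested, and each of the 8 genes had at least 1 of these. By the brightest probe set, 5 of the 8 genes were higher in ALDH-positive cells in all 3 pools, namely Lox, Loxl1, Loxl3, Fn1 and Ccdc80, and 0 were lower in all 3. With the values as deposited, Loxl3 was not among the higher ones, at -0.18 in pool 1. Over all 12814 genes tested, 11.3% were higher and 11.4% lower in all 3 pools. The 3 ALDH-positive values all exceeded the 3 ALDH-negative ones for 4 genes, Lox, Loxl1, Fn1 and Ccdc80, with 3.55% over all genes tested; they all lay under them for 0 genes, with 3.32% over all genes. Since the genes were chosen with this contrast known, nothing is read from these shares.

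The median difference of the 8 genes was 1.74, beside -0.08 over all genes tested. By pool it was 2.18, 2.84 and 0.88 in pools 1, 2 and 3, and without pool 2 it was 1.18, beside 0.04 over all genes. Without pool 2, 6 of the 8 were higher in both remaining pools, with Loxl4 and Loxl3 among them, and 27.8% of all genes tested were so. Loxl3 was not so with the values as deposited.

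Within the ALDH-positive fraction the genes differed in how they varied between pools. At the brightest probe sets Loxl1 spanned 0.37 over the 3 arrays, and the others spanned 1.04 to 1.99. There Lox, Sparc and Dcn had their lowest ALDH-positive values in pool 3, 1.50, 1.09 and 1.85 below pool 1. Fn1 and Ccdc80 had their highest in pool 3, 0.44 and 1.20 above pool 1. The second probe set of Ccdc80 was instead lowest in pool 3, at 5.56, and that of Lox read 6.50 there against 6.91 in pool 1. Of the other Sparc probe sets, 1416589_at was also lowest in pool 3 and 1458204_at was not. On both arrays of pool 3 the 5' control probe set of Gapdh read low as deposited, at 5.20 on the ALDH-positive array and 6.63 on the ALDH-negative one, against 10.24 and 10.30 in pool 1 and 10.11 and 7.92 in pool 2. The part of this in the differences between pools was not tested.

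Fn1 and Ccdc80 followed each other most closely over the 6 arrays, with a Pearson correlation of 0.965, and 0.934 over the 5 arrays without the ALDH-negative array of pool 2. Lox and Loxl1 correlated at 0.890 and 0.887 on the same arrays. Loxl3 and Sparc gave 0.287 over 6 arrays and -0.946 over 5, and Loxl3 and Loxl4 gave -0.537 and 0.833. These pairs show how far 1 array can set such a value. All are descriptions over arrays that share pools and cultures. The arrays also span both fractions, and the genes were chosen with that contrast known. Genes higher in the same fraction therefore correlate in part through that difference, and nothing beyond it is read from these values.

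Over the 6 arrays, the genes whose brightest probe set was most like that of Loxl1 were Zbtb7c (correlation 0.997), Ltbp2 (0.995) and Mertk (0.990). Those most like Ccdc80 were Cavin2 (0.998), Krt8 (0.991) and Ccn4 (0.988), and those most like Fn1 were Acta2 (0.980), Cdh11 (0.980) and Il18 (0.971). Lox was most like Add3 (0.994), Saa3 (0.980) and Celsr1 (0.976), and Dcn most like Rtn1 (0.961), Vat1l (0.947) and Steap4 (0.943). Loxl3 was most like Cdkn2b (0.998), Pogk (0.998) and Hsd17b10 (0.997). Sparc was most like Atp5e, Naca and Bcas2 (0.999 each), and Loxl4 like Klrg1 and Sp110 (0.999 each) and Fbp2. These are descriptions over 6 points that span both fractions, from 12814 genes, and nothing about function follows from them.

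The collagens are substrates that the lysyl oxidases crosslink. Of 10 tested fibrillar and microfibrillar collagen genes, 0 passed the test in either direction, 6 were higher in ALDH-positive cells in all 3 pools and 0 were lower in all 3. Beside this list and those that follow, 11.3% of all genes tested were higher and 11.4% lower in all 3 pools. The median difference was 1.10, and 0.93 without pool 2. Col3a1, the chain of type III collagen, read 8.92, 8.75 and 8.96 in ALDH-positive cells, against 4.88, 3.44 and 6.61 in ALDH-negative cells. Col6a2, of the beaded filament collagen VI, differed by 3.43, 4.43 and 3.02, and Col5a2, of the fibril-initiating collagen V, by 2.28, 1.72 and 0.70. Col1a1, of the main fibril collagen, differed by 3.63, 0.43 and 1.78. Col14a1, a fibril-associated collagen, and Col1a2, the partner chain of Col1a1, were named after their values were seen. Col14a1 was lower in the mean, by -0.97, but differed by 0.09 without pool 2, and Col1a2 differed by 1.45, 1.56 and -1.17.

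The enzymes and the chaperone that prepare collagen before it is crosslinked gave differences that varied between pools. Of 18 tested genes 0 passed, 2 were higher and 0 lower in all 3 pools, and the median difference was 0.30. The share higher in all 3 pools was close to that over all genes tested. Serpinh1, the collagen chaperone HSP47, differed by 0.79, 5.59 and 0.65, and P4hb, the beta subunit of prolyl 4-hydroxylase, by -0.14, 8.27 and 2.86, so that both means rest largely on pool 2. P4ha3, a catalytic subunit of prolyl 4-hydroxylase, differed by 0.12, -3.41 and -2.47. Tgm2, a transglutaminase that crosslinks fibronectin, differed by 2.18, 1.93 and 0.16.

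Among 16 tested genes of elastic fibres and microfibrils, a list that holds elastin, on which Loxl1 acts, 0 passed, 3 were higher in all 3 pools and 0 lower. The median of -0.15 became 0.26 without pool 2, 0.32 with the values as deposited and 0.49 with median-centred arrays. Ltbp2, a microfibril protein that binds fibrillin, read 5.08, 5.20 and 5.17 in ALDH-positive cells, against 2.32, 2.51 and 2.50 in ALDH-negative cells, which lie under the level of 2.73. Its differences of 2.77, 2.68 and 2.67 were nearly equal. The fibulins Efemp1 and Fbln2 differed by 2.69 and 1.52 in the mean, and by 1.66 and 1.20 without pool 2. Ltbp4, which guides elastin assembly, differed by 1.97, 1.89 and -0.07.

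The small leucine-rich proteoglycans, the family of Dcn, had 6 tested members of which 0 passed, 1 was higher and 2 were lower in all 3 pools. The median was -0.72, and 0.19 without pool 2. Ogn, osteoglycin, was the higher one, with differences of 0.62, 1.93 and 4.85. The lower ones were Prelp, which anchors basement membranes to collagen, at -0.84, -3.83 and -0.69, and Omd, osteomodulin, at -0.83, -0.59 and -1.49. Fmod, fibromodulin, which binds collagen fibrils, differed by 0.29, -2.75 and -0.17.

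Of 14 tested matricellular and adhesive glycoproteins, the class of Sparc, 0 passed, 2 were higher and 1 was lower in all 3 pools, with a median of -0.10. That median was 0.39 without pool 1, -0.25 without pool 2 and 0.07 without pool 3, and with median-centred arrays it was 0.07. Ccn2 and Ccn1, secreted matricellular proteins, were the higher ones, with means of 2.48 and 1.51, and 0.95 and 0.50 without pool 2. Mgp, the matrix Gla protein that inhibits calcification, was lower by -0.42, -1.57 and -1.23. Vcan, the large proteoglycan versican, differed by -0.54, 3.08 and 1.05.

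Of 13 tested receptors and assembly partners of fibronectin, 0 passed, 5 were higher and 0 lower in all 3 pools. Their median of 0.82 was 0.08 without pool 2, where Fn1 itself differed by 2.54. The syndecan Sdc2 differed by 0.78, 4.37 and 0.98, and Tns1, a tensin of fibrillar adhesions, by 1.02, 2.36 and 0.81. Tln1 and Vcl, the talin and vinculin that tie integrins to actin, differed by 5.90 and 6.84 in pool 2, against 0.13 and 1.21 in pool 1 and 0.39 and 0.61 in pool 3.

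**Figure D3:**
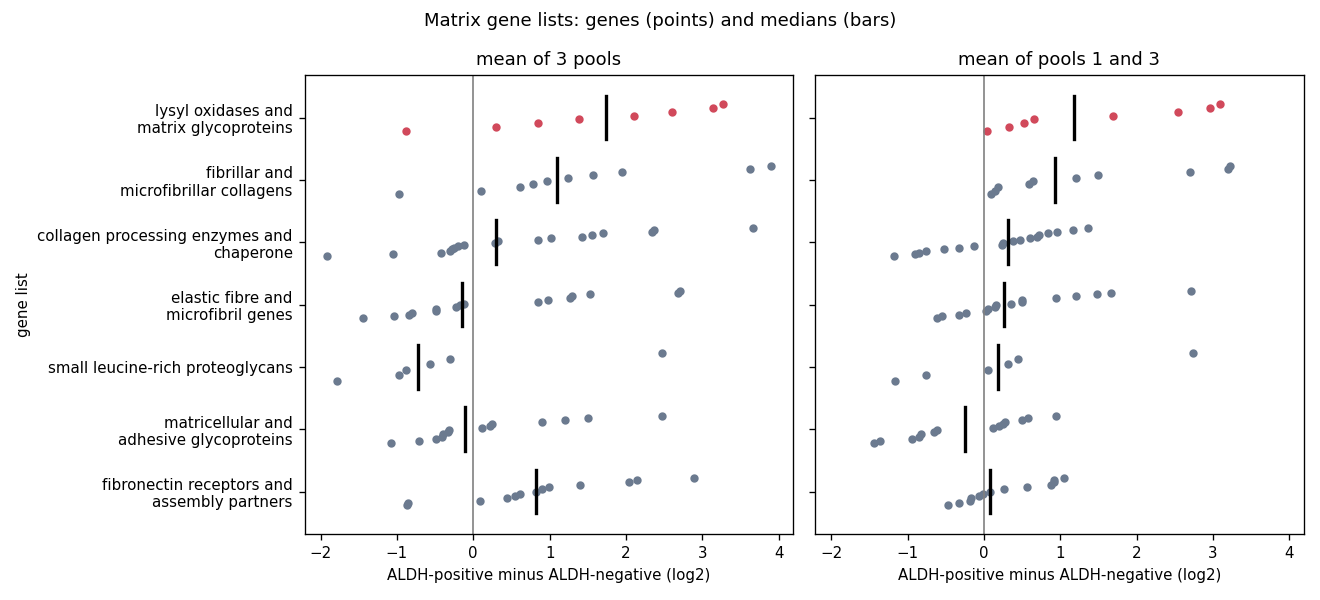
Differences of ALDH-positive minus ALDH-negative signal (log2, horizontal axis) for the 8 lysyl oxidase and matrix glycoprotein genes (red) and the tested genes of 6 related lists (grey), as means of 3 pools (left) and of pools 1 and 3 (right); points are genes and black bars medians. The median of the 8 genes is 1.74 with 3 pools and 1.18 without pool 2, and that of the fibronectin receptors is 0.82 and 0.08.

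Markers of other cell types that moved between the fractions are given beside these results. The summed signal of 11 fibroblast and stroma markers was 10.03 to 10.42 in ALDH-positive arrays, against 7.03 to 8.90 in ALDH-negative arrays (log2). Signals were summed before the log2 was taken, so the brightest genes weigh most. On ALDH-positive arrays these were the collagens Col3a1 and Col1a1, with means of 8.88 and 8.54. Of 7 tested stroma markers 0 passed and 4 were higher in all 3 pools, which were the collagens Col3a1 and Col6a2 and Col1a1, also counted above, and Thy1, a fibroblast surface glycoprotein, at 1.22, 1.83 and 2.35. The receptors of platelet-derived growth factor on stromal cells, Pdgfra and Pdgfrb, were named after their values were seen. Pdgfra read 3.94, 4.60 and 4.19 in ALDH-positive cells, against 2.96, 4.17 and 4.56 in ALDH-negative cells, and Pdgfrb differed by 0.64, -2.86 and -0.24. The defining stroma markers Lum, Postn, Dpt and Tcf21 were too dim to be tested.

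The summed signal of 9 smooth muscle and pericyte markers was 10.32 to 10.69 in ALDH-positive and 7.60 to 8.59 in ALDH-negative arrays. Of 7 tested, 3 were higher in all 3 pools, namely Acta2, Tagln and Myl9 of the contractile apparatus, with means of 3.59, 2.94 and 2.62. Notch3, a pericyte receptor, was the 1 gene lower in all 3 pools, by -0.05, -0.53 and -1.25, and 0 passed. The median of the 7 was -0.33, and 0.67 without pool 2. The intermediate filament gene Des and the pericyte proteoglycan gene Cspg4 differed by -0.33 and -0.53 in the mean, and by 0.62 and 0.67 without pool 2. Notch3, Des and Cspg4 were named after their values were seen. Myh11, smooth muscle myosin, differed by 1.48, -3.30 and -1.33, and Cnn1 and Rgs5 were too dim to be tested.

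The summed signal of the 15 surface epithelium and mesothelium markers was 11.37 to 11.70 in ALDH-positive and 8.36 to 9.18 in ALDH-negative arrays, and all 15 were higher in each pool, although 0 passed. Krt19 and Upk1b, a keratin and a uroplakin, differed by 4.88 and 3.92 in the mean, and Bnc1 and Gpm6a, a membrane glycoprotein, by 5.45 and 4.36. Lox, Loxl1, Fn1 and Ccdc80 were thus higher on the same arrays as these epithelial markers and as some stroma and contractile markers, and the part of each in the differences was not tested.

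The remaining marker lists did not separate the fractions without overlap. Granulosa markers summed to 9.94 to 10.61 in ALDH-positive and 7.28 to 11.05 in ALDH-negative arrays, and their median was 1.06, or -0.09 without pool 2. The inhibin subunits Inha, Inhba and Inhbb had means of 1.23, 1.24 and 1.50, which without pool 2 were -0.08, -0.09 and 1.13, and the estrogen receptor Esr2 had -0.88, or -0.17.

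Theca, interstitial and luteal markers summed to 11.67 to 12.24 in ALDH-positive and 8.19 to 12.79 in ALDH-negative arrays, with a median of 0.71, or -0.39 without pool 2. The steroidogenic genes Cyp11a1, Hsd3b1 and Fdx1 had means of 1.57, 0.71 and 1.33, which without pool 2 were -0.94, -0.39 and -0.38. The lipoprotein receptor Scarb1 had 0.65, or -0.34 without pool 2.

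Endothelial markers summed to 6.0 to 7.01 in ALDH-positive and 6.14 to 6.83 in ALDH-negative arrays, with a median of 0.03, or 0.34 without pool 2. The means were 1.44 for Kdr, 0.06 for Vwf, -0.01 for Pecam1 and -1.16 for Eng, and without pool 2 they were 1.44, 0.98, -0.29 and -0.90. Leukocyte markers summed to 5.87 to 8.38 in ALDH-positive and 6.27 to 8.59 in ALDH-negative arrays, with a median of -0.73, or 0.01 without pool 2. The means were -1.33 for Lyz1, -1.27 for Cd3e, -0.90 for Ptprc and -0.56 for Cd68, and without pool 2 they were -1.40, 0.31, 0.39 and -0.31.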

How the data were processed

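Per the labels' protocols, total RNA (mirVana) went through whole transcript amplification (Ovation Pico) before biotin labelling. The deposited table holds 45101 probe sets by 6 arrays, with values from 0.03 to 13.06; these deposited values were taken as log2 signal from their range. How they were summarised and normalized is not given in the sources used here, and detection calls were not used. Array medians differed by 0.46, so 64 control probe sets were removed and the arrays quantile normalized, which pulls the arrays towards a common distribution; control probe sets are given as deposited. Probe sets in the lower 40% by mean were left out, which kept 27022. Names came from GEO's platform annotation, updated by Entrez identifier with RefSeq (GRCm38.p6): 34945 probe sets had 1 symbol, 932 several and 9160 none. The probe set of highest mean stood for a gene.

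The fit across all probe sets used limma 3.58.1 (lmFit, eBayes; R 4.3.3), the pool as a block, at an adjusted p of 0.05 over all probe sets. That pools pair the arrays is stated by the series design, which names a paired test; deviations of same-pool arrays correlated at 0.38, -0.19 and 0.35. The fit was run on simulated data as a check of its estimates and calls. Calls were required there only at a spread below that of these data. The check therefore does not show power to call genes here, and a lack of calls is no sign that the fractions were alike. The genes and lists were chosen with earlier results of these data known. Named are all members with every probe set and, in each list, up to 4 genes of smallest unadjusted p; others are marked as named after their values were seen. For likeness, the 3 genes of highest correlation with each member were taken. Alternatives covered normalization, filter, block, weights, probe sets and pools left out.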

Additional observations from a re-analysis of the deposited data

How the results depend on the processing

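The number of probe sets called stayed at 0 in both directions with the values as deposited, with median-centred arrays, with no filter or a filter on the lower 20%, with trend and robust eBayes, without replicate 2, without replicate 3, without the ALDH-negative array of pool 2, and with no replicate block (0 called). With array weights 1478 were called higher and 1475 lower; these weights were 4.87 for both arrays of pool 3, 1.30 for pool 1 and 0.158 for pool 2, so this fit rests mostly on 1 pair; 4 of the 8 genes (Lox, Loxl1, Fn1 and Ccdc80) were among those called higher. Leaving out 1 pool gave 0 to 4 called higher and 0 to 3 called lower, the highest numbers without replicate 1. The median difference of the 8 genes lay between 0.99 (array weights) and 2.21 (median-centred arrays), and leaving out 1 pool gave 1.18 to 2.18. Median-centring moved the median of all genes to 0.26 from -0.08; relative to it the 8 genes stood at 1.96 and 1.83. The median of the 77 related matrix genes, 0.32, was 0.79 with median-centred arrays, and 0.25 to 0.43 with 1 pool left out. Of 154 values of single genes and lists under alternatives, 12 moved by over 1 SD of the pools and 18 turned sign. The single genes that turned sign were Loxl4 (0.52 without pool 2, 0.30 with array weights, 0.22 without its ALDH-negative array), Loxl3 and Dcn (-0.08 with array weights). Among the lists, the elastic fibre, small leucine-rich proteoglycan and matricellular medians turned sign. The values that moved by over 1 SD were those of Loxl1, Loxl3, Fn1 and the elastic fibre median. Loxl1 fell from 3.14 to 1.98 with the mean of all its probe sets. Fn1, at 2.61 with an SD of 0.13, moved to 2.85 as deposited and to 3.01 with median-centred arrays. It was 2.13 without the ALDH-negative array of pool 2 and 2.12 with the mean of its probe sets. Few arrays and ALDH-negative signals near background limit the folds of Loxl1 and Ltbp2.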
